A study of Homo sapiens with 3 samples.

Results

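The NRF2 pathway was followed through 10 genes in H2373 cells, a line derived from malignant pleural mesothelioma: NFE2L2, KEAP1, HMOX1, GCLM, GCLC, NQO1, TXNRD1, SRXN1, SLC7A11 and GPX2. These genes were taken from the array annotation by their symbols, which gave 16 of the 48798 probes with signals and 10 of the 18851 genes with a probe. Cells received no dye, 36 µM Hoechst 33258 (H258) for 3 h or 36 µM Hoechst 33342 (H342) for 3 h. The growth medium, with fetal calf serum, is described alike for all. Both dyes bind the DNA minor groove at AT-rich sequences, and they differ in a substituent of the phenyl ring at one end, a hydroxyl in H258 and an ethoxy in H342. The time in culture of the untreated cells, and whether they received a vehicle, are not stated. RNA of each condition was hybridized to 1 Illumina BeadChip array, so there were 3 arrays and no replicates: no difference here has a standard error or a p-value, and precision is limited by the number of arrays.

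NRF2, the product of NFE2L2, is the main transcription factor of the response to electrophiles and oxidants. In unstressed cells the adaptor protein KEAP1 binds NRF2 and hands it to a CUL3 ubiquitin ligase for degradation, so NRF2 activity is mostly set by protein stability rather than by the amount of its mRNA. When reactive compounds modify cysteines of KEAP1, NRF2 accumulates, pairs with a small MAF protein and binds antioxidant response elements near genes for glutathione synthesis, thioredoxin recycling, quinone reduction and heme breakdown. Tumor cells can keep this programme switched on without a stress.

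After 3 h with either dye, some of the 10 genes had lower signals by 2-fold or more on their brightest probes, and none had higher ones. Under H342, HMOX1 was 5.86-fold lower than in untreated cells, GPX2 at least 4.28-fold lower and GCLM 2.29-fold lower, while under H258 only GPX2 was lower by 2-fold or more, at least 4.22-fold. These sizes are after background correction, without which the log2 difference of GPX2 was -1.08 under H258 and -1.34 under H342. NFE2L2 was lower under both dyes, by 1.84-fold with H258 and 1.85-fold with H342, short of 2-fold on both arrays. NQO1 and TXNRD1 differed by at most 1.30-fold on their brightest probes. Calls needed a difference of 2-fold or more and detection, at a p under 0.05, on 1 or both of the arrays compared. By this rule 1 of 10 genes was lower and 0 higher under H258, against 3.35% lower and 0.768% higher among 10550 genes tested. Under H342, 3 of 10 were lower and 0 higher, against 3.61% lower and 1.25% higher among 10581 genes. The median log2 difference of the 10 genes was -0.33 under H258 and -0.46 under H342, beside 0.06 and 0.03 over all genes tested. The 10 genes were chosen with earlier results of these data known, so these counts and medians describe them and test nothing. The split of calls over all genes moved with the background correction: 81 higher and 353 lower under H258 became 3 and 109 without it and 3 and 85 in the value table normalized by the authors, and 132 and 382 under H342 became 26 and 146, and 23 and 140. Since both comparisons use the same untreated array, the lower values under the dyes are not independent of each other.

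The arrays were comparable in brightness, with medians of 133.5 (untreated), 132.4 (H258) and 130.0 (H342), and between 15115 and 16169 probes detected. The lowest detected signals were 155.5, 160.0 and 156.5 in the same order. Differences are on the log2 scale after background correction with an offset of 16 and quantile normalization, and each gene is represented by its brightest probe. The 5th and 95th percentiles of the log2 differences over all genes tested were -0.87 and 0.65 under H258 and -0.84 and 0.69 under H342. As a gauge of how far probes of a gene agree, the log2 differences of its 2 brightest probes were compared. This used 2211 genes with at least 2 probes detected on every array. The differences lay 0.21 apart in the median and 0.58 apart at the 90th percentile under H258, and 0.20 and 0.58 apart under H342. Both probes read the same RNA, so this gauge does not cover variation between cultures or arrays. Of 14 mesothelial markers, MSLN, WT1, CALB2, KRT7, KRT8, KRT18, CDH2 and VIM were detected on every array, while UPK3B, KRT5, PDPN and LRRN4 were detected on none, and KRT19 and THBD on 1 array each. The leukocyte markers PTPRC and CD3E and the endothelial markers CDH5, VWF, KDR and TEK were not detected, whereas CD68, CD14 and PECAM1 were. LYZ, another leukocyte marker, was not detected without dye, at 146, and was detected with H258 and H342, at 161 and 168.

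**Figure D1:**
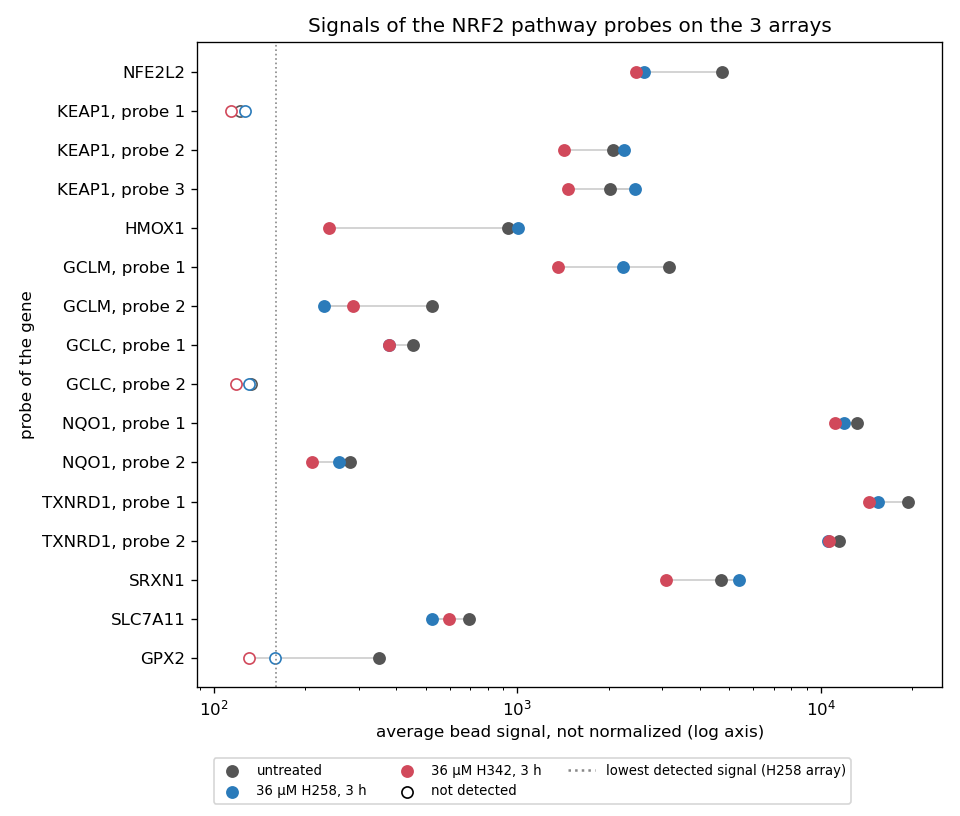
Average bead signal (not normalized, log axis) of each of the 16 probes of the 10 genes without dye (grey), with H258 (blue) and with H342 (red), 1 array each; open circles were not detected, and the dotted line marks 160.0, the lowest detected signal of the H258 array. At GCLC the H258 point lies under the H342 point, both at 378. HMOX1 stands apart under H342 only, at 240 against 931 and 1005, and GPX2 is above the line in untreated cells only.

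The regulators NFE2L2 and KEAP1 are described first. NFE2L2 (chr2:177230303-177264727, GRCh38.p14, as are all coordinates here) gave 4739 in untreated cells, 2628 with H258 and 2460 with H342. Both treated arrays were thus lower than the untreated one and close to each other, with a log2 difference of -0.01 between them. The log2 difference from untreated cells was -0.88 under H258, the 517th lowest of the 10550 genes tested, and -0.89 under H342, the 491st lowest of 10581. Among the 500 genes of most similar brightness, the 5th percentile was -0.67 under H258 and -0.51 under H342, so NFE2L2 lay below that range on both arrays. Its only probe was detected everywhere, and no second probe was there to check it.

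KEAP1 (chr19:10486125-10503356) moved differently under the dyes. Its brightest probe gave 2018 without dye, 2445 with H258 and 1474 with H342, and a second probe 2074, 2242 and 1431. Both probes were highest under H258 and lowest under H342. The log2 differences of the brightest probe were 0.30 under H258 and -0.40 under H342, and those of the second were 0.13 and -0.48, all within the 5th to 95th percentiles of genes of similar brightness for the brightest probe. Another probe, drawn from a different transcript record of KEAP1, was not detected on any array.

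HMOX1 (chr22:35381096-35394207) encodes heme oxygenase 1, the inducible enzyme that opens the heme ring to biliverdin, carbon monoxide and iron. It gave 931 in untreated cells, 1005 with H258 and 240 with H342. The untreated and H258 arrays lay close together and the H342 array far below them, still above its lowest detected signal. The log2 difference under H342 was -2.55, the 18th lowest of the 10581 genes tested, and under H258 it was 0.18. Set directly against H258, HMOX1 was 6.65-fold lower under H342, the 9th lowest of 10296 genes. The size depended on the background correction, since the log2 difference from untreated cells under H342 was -1.88 without it and -1.81 in the value table normalized by the authors. HMOX2, the constitutive heme oxygenase, was detected in untreated cells only, with a signal of 164 just above the lowest detected one, so it could not be compared between the dyes.

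The glutathione genes were GCLC and GCLM, the catalytic and modifier subunits of glutamate-cysteine ligase, SLC7A11, the cystine importer of system xc-, and GPX2, a selenium-dependent glutathione peroxidase best known from the gut epithelium. GPX2 (chr14:64939158-64942745) gave 349 in untreated cells, 159 with H258 and 131 with H342. It was detected in untreated cells only, although its detection p under H258, 0.0501, lay at the threshold. The folds given above, at least 4.22 and at least 4.28, set the undetected side to the lowest detected signal of its array, and they apply only to values after background correction. The fitted log2 differences were -2.09 and -2.57. Since GPX2 was not detected under either dye, the dyes were not compared at this gene.

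GCLM (chr1:93885199-93909430) was lower under both dyes, and its probes disagreed on which dye was lower. The brightest probe gave 3175 without dye, 2238 with H258 and 1366 with H342, which put H342 lowest. A dimmer probe of the same transcript record had 525, 230 and 288, which put H258 lowest. Under H342 both gave a similar value, with log2 differences of -1.20 and -1.11. Under H258 they gave -0.52 and -1.71, a gap of 1.19 that is wider than the 0.58 at the 90th percentile of genes with 2 detected probes. A call at GCLM under H258, and the order of the dyes there, therefore rested on the choice of probe. The dimmer probe fell short of 2-fold under H342 without background correction, at -0.79. Its signal under H258 was near the lowest detected one. Without that correction the dimmer probe was at -1.13 under H258 and the brightest probe at -0.49.

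The remaining glutathione genes stayed nearer to the untreated array. GCLC (chr6:53497341-53545101) gave 453 without dye and 378 with either dye, with log2 differences of -0.28 under H258 and -0.27 under H342. A second GCLC probe was not detected. SLC7A11 (chr4:138164097-138242349) gave 695 without dye, 525 with H258 and 598 with H342, with log2 differences of -0.43 and -0.16. All of these lay inside the 5th to 95th percentiles of genes of similar brightness. The catalytic subunit and the modifier subunit thus differed in size of change under H342, by log2 differences of -0.27 against -1.20, and this gap was not tested.

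NQO1, TXNRD1 and SRXN1 act on quinones, on thioredoxin and on oxidized peroxiredoxins. NQO1 (chr16:69709401-69726560), a quinone reductase used as a standard readout of NRF2, gave 13209 without dye, 11958 with H258 and 11182 with H342. Its log2 differences were -0.20 and -0.14. A dim NQO1 probe had 280, 259 and 210, with log2 differences of -0.11 and -0.64. TXNRD1 (chr12:104215779-104350307), the cytosolic thioredoxin reductase, had 19445, 15461 and 14499 on its brightest probe, with log2 differences of -0.38 and -0.33. On its other probe it had 11510, 10582 and 10654, with -0.18 and -0.01. These bright probes were within 1.30-fold of untreated cells under both dyes. For the brightest probe of TXNRD1, the 5th percentile of genes of similar brightness was -0.42 under H258 and -0.33 under H342, next to its values. SRXN1 (chr20:646615-653200), sulfiredoxin, gave 4691 without dye, 5375 with H258 and 3093 with H342. Like KEAP1 it was highest under H258 and lowest under H342, with log2 differences of 0.18 and -0.51, neither reaching 2-fold. The 5th percentile of genes of similar brightness under H342 was -0.50, next to its value.

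**Figure D2:**
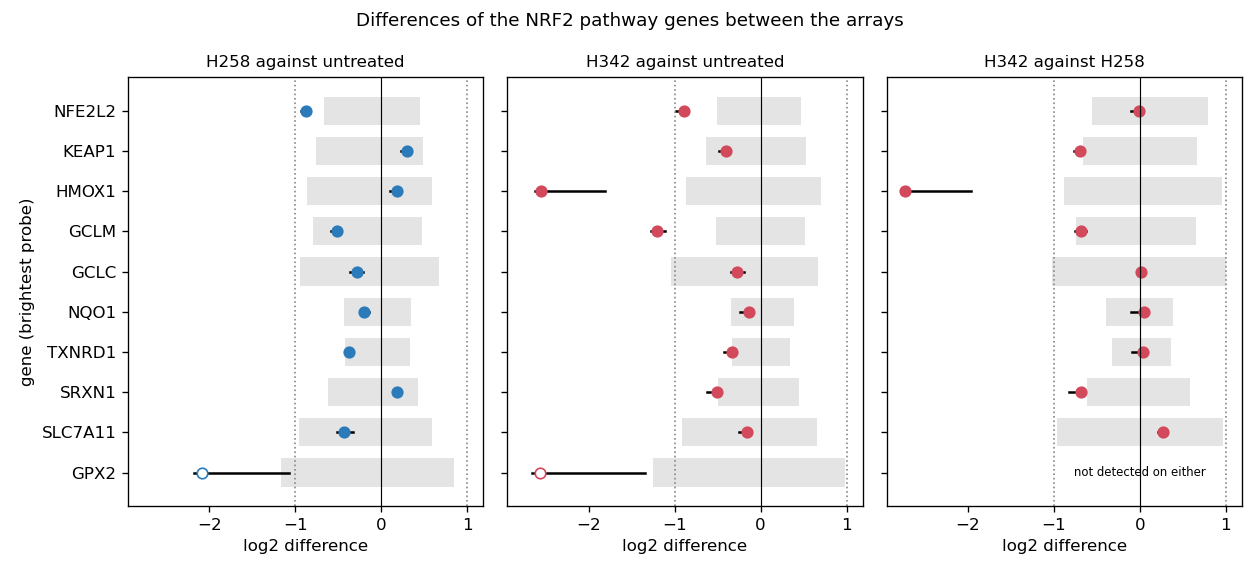
Log2 difference of each gene's brightest probe in the 3 comparisons (points; open where 1 side was not detected), with black lines for the range over 8 settings of normalization and bounds, grey bars for the 5th to 95th percentiles of the 500 genes of most similar brightness, and dotted lines at 2-fold. HMOX1 under H342, at -2.55, GPX2 under both dyes, at -2.09 and -2.57, and GCLM under H342, at -1.20, pass 2-fold.

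The dyes were also compared directly, H342 against H258 at the same dose and time, with 1 array each. HMOX1 was the only 1 of 9 genes detected there to reach 2-fold, lower under H342, and 0 were higher, against 3.69% lower and 3.74% higher among 10296 genes tested. The comparison covered 9 pairs of values, for which no interval can be given from single arrays. KEAP1, GCLM and SRXN1 were lower under H342 by log2 differences of -0.70, -0.68 and -0.69 on their brightest probes, with 0.59 on the dimmer probe of GCLM. For KEAP1 and SRXN1 this was below the 5th percentile of genes of similar brightness, -0.66 and -0.62, and for GCLM it was above it, at -0.74. GCLC at 0.01, TXNRD1 at 0.04, NQO1 at 0.05 and NFE2L2 at -0.01 were within 1.04-fold between the dyes on their brightest probes, with -0.53 on the dim probe of NQO1 and 0.17 on the other probe of TXNRD1, and SLC7A11 was at 0.27. The median over the 9 genes was -0.01, equal to that over all genes.

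The core antioxidant response element, TGACNNNGC on either strand, was searched in the 250 bases before each start site in the RefSeq promoters of GRCh38.p14. It occurred in 10.9% of 35116 such windows. Promoters were at hand for 8 of the 10 genes, HMOX1 and SLC7A11 being the others. These 8 genes had 11 windows, of which 5 held a match. Sequence outside the windows was not searched, so a window without a match does not show that a gene lacks the element. GCLM, GPX2, TXNRD1 and KEAP1 held a match, TXNRD1 at both of its start sites and KEAP1 at 1 of 2, with 2 matches there. None overlapped an AP-1 site (TGACTCA or TGAGTCA). The matches of GCLM and GPX2, which were lower by 2-fold or more with H342, are printed beside that of TXNRD1, which was not. The match is in capitals, and in GCLM and GPX2 it lies on the strand opposite to the gene.
GCLM, chr1:93909431-93909490, minus strand: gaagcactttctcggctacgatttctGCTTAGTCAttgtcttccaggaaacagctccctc
GPX2, chr14:64942834-64942893, minus strand: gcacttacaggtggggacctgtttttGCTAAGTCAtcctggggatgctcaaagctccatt
TXNRD1, chr12:104215654-104215713, plus strand: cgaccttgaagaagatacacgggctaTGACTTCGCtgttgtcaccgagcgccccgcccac
The first base of the match lay 34 bases before the start site in GCLM, 122 in GPX2 and 99 in TXNRD1. A/T bases made up 27.6% of the 250 bases in GCLM, 46.0% in GPX2 and 43.6% in TXNRD1, beside a median of 42.0% over all windows. A match in this window was thus found beside a gene that was lower and beside one that stayed within 2-fold, and it is a description of the letters only.

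Around these 10 genes, lists of regulators, other targets and neighbouring antioxidant systems were examined. Over the 162 further genes with a probe on these lists, 137 were tested under each dye: with H258, 2 passed 2-fold upward and 4 downward, and with H342, 2 and 6. The downward shares lay near those of all genes tested, 3.35% and 3.61%. Upward, the shares of all genes tested were 0.768% and 1.25%. The medians of the further genes were 0.08 and 0.05. Between the dyes, 134 were tested, of which ABCC3 was higher under H342 and 5 were lower: AKR1C2, AKR1B10, ALDH3A1, CHAC1 and SESN2. Over all genes tested between the dyes, 3.74% were higher under H342 and 3.69% lower. Without background correction ALDH3A1 and SESN2 fell short of 2-fold there, both at -0.74, and the bound of ALDH3A1, undetected under H342, was 1.75-fold. ABCC3 fell short of 2-fold in the table normalized by the authors, at 0.97. None of 21 regulators of NRF2 tested under H258 and none of 22 tested under H342 reached 2-fold. SQSTM1, the autophagy receptor that sequesters KEAP1, had log2 differences of 0.21 and 0.20, and PARK7, a redox-sensitive protein that stabilizes NRF2, 0.01 and 0.06. CUL3, the scaffold of the ligase that ubiquitinates NRF2, was detected under H342 only, with a signal of 172 against 122 in untreated cells and 132 under H258.

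Other NRF2 targets held the largest differences of the pathway. Of 36 tested against untreated cells for each dye, 0 were higher and 3 lower with H258, and 2 higher and 3 lower with H342. Over all genes tested, the shares were 0.768% higher and 3.35% lower with H258, and 1.25% and 3.61% with H342. The medians of the list were 0.04 and -0.01. The 3 lower ones were the same under both dyes. ALDH3A1, which oxidizes aldehydes, gave 436 without dye, 202 with H258 and 120 with H342, and was not detected under H342. Its log2 difference under H258 was -1.75, and under H342 the bound after background correction was 5.88-fold. Without background correction the log2 differences were -1.06 and -1.80. The aldo-keto reductase AKR1C2 had 5158, 1297 and 194 in the same order, and AKR1B10 had 3001, 743 and 175. Their log2 differences were -2.06 and -5.83 for AKR1C2 and -2.16 and -5.34 for AKR1B10, under H258 and H342. Under H342 both signals were near the lowest detected one, and without background correction the log2 differences there were -4.68 and -4.04. At all 3 genes the signal was highest without dye and lowest with H342, unlike at HMOX1, where H258 gave the highest signal. AKR1C2 is one of a family of near-identical genes, so its probe may also bind RNA of its relatives. On their own probes, AKR1C1 was not detected on any array, and AKR1C3 had log2 differences of -0.52 and -0.74. ABCC3, an efflux pump for glucuronide and other conjugates, was higher under H342, with signals of 1447, 1810 and 3396 and a log2 difference of 1.42. SLC48A1, a heme transporter, had 176, 207 and 237, and its log2 difference of 1.04 under H342 became 0.49 without background correction. FTL, the ferritin light chain, and the redox protein TXN, the brightest of the list, had log2 differences between -0.08 and 0.01 under the dyes.

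In the glutathione system, CHAC1, which degrades glutathione, gave 320 without dye, 395 with H258 and 167 with H342. It was lower under H342 than in untreated cells by a log2 difference of -1.69, or -0.87 without background correction, and lower than under H258 by -2.21, or -1.22 without it. MGST2, a microsomal glutathione transferase, was detected in untreated cells only, with a signal of 209, and is counted as lower under both dyes by its fitted log2 differences of -1.42 and -1.16, although its bounds were 1.74-fold under H258 and 1.77-fold under H342. OPLAH, which recycles 5-oxoproline, had 180, 246 and 212, and its log2 difference of 1.02 under H258 became 0.49 without background correction. Of the 31 genes of this list tested under H258, 1 was higher and 1 lower. Of the 30 tested under H342, 0 were higher and 2 lower. The shares over all genes tested were 0.768% higher and 3.35% lower under H258, and 1.25% and 3.61% under H342. GSTP1 and GPX4, the brightest of the list, lay between 0.18 and 0.23 on the log2 scale under both dyes.

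Of 20 genes tested in the thioredoxin and peroxiredoxin system, 1 was higher under H258 and 0 lower, and 0 were higher and 1 lower under H342, beside 0.768% higher and 3.35% lower, and 1.25% and 3.61%, over all genes. TXNIP, an inhibitor of thioredoxin, had 2267, 5149 and 2964, highest under H258. SESN2, a stress-induced sestrin, had 282, 315 and 187, with a log2 difference of -1.02 under H342 that became -0.52 without background correction. PRDX1, a peroxiredoxin and an NRF2 target, had log2 differences of 0.09 and -0.14. None of 7 genes tested on the superoxide and peroxide list, and none of 18 of NADPH supply, reached 2-fold under either dye. On the former list, SOD1 was at 0.08 and -0.01, and PRNP, the prion protein, at -0.39 and -0.06. On the latter, TALDO1 was at 0.10 and -0.05 and TKT at 0.12 and -0.20, both of the pentose phosphate pathway. Of 19 genes tested in heme and iron handling, SLC48A1 alone reached 2-fold, under H342, and PCBP2, an iron chaperone, was at 0.08 and -0.02.

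**Figure D3:**
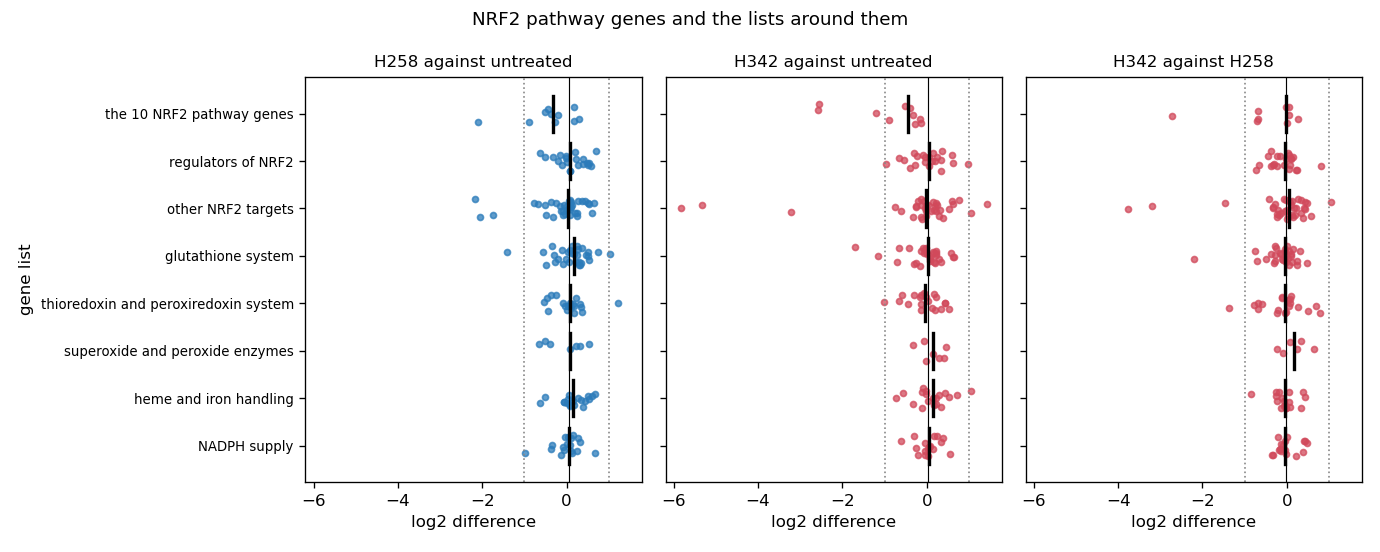
Log2 difference of each gene tested (points, 1 per gene, spread vertically for visibility) of the 10 genes and of 7 lists around them in the 3 comparisons; thick black marks are list medians, the thin line is the median over all genes tested and dotted lines mark 2-fold. The medians of the 7 lists lie between -0.05 and 0.18, while AKR1C2 and AKR1B10 reach -5.83 and -5.34 under H342.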

How the data were processed

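H2373 cells were compared untreated, under H258 and under H342, with 1 Illumina BeadChip array per condition and groups taken from the sample labels. The deposited intensities are bead averages per probe, produced by the authors in BeadStudio 3.1.3.0 according to the labels, without background subtraction or normalization. A detection p-value, deposited beside each of them, sets the probe against negative control beads. A further deposited table holds linear intensities that the authors had normalized (how is not given in the sources used here) and served as an alternative.

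With R 4.3.3 and limma 3.58.1, background was corrected and arrays were normalized by neqc (offset 16, negative controls inferred from the detection p, quantile), followed by log2. Tables and figures were made with Python 3.11.15, numpy 2.4.6, pandas 2.3.3 and matplotlib 3.10.9. Of 48798 probes, 28093 had 1 symbol, 13 had several and 20692 had none in the annotation, which is that of an earlier version of the BeadChip than the text of the study names. A gene was represented by its brightest probe. Undetected sides were set to the lowest normalized value among detected probes of the array for a bound of the fold. The main normalization and the 2-fold call were checked on simulated arrays, with each probe taken as its own gene. The other steps were not checked in this way. With no replicates, genes were called at 2-fold across all genes without a test.

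All probes of the 10 genes are described. Of each further list, every gene past 2-fold and the 2 genes with the brightest probes are named. Outside this rule, CUL3 and HMOX2 were chosen after their values were seen, and AKR1C1 and AKR1C3 are named as relatives of AKR1C2. The genes and lists were chosen with earlier results of these data known. Alternatives covered the offset (50), leaving out background correction, median scaling, cyclic loess, no normalization, the deposited table, stricter and looser detection filters, folds of 1.5 and 3, the mean over the probes of a gene, and bounds.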

Additional observations from a re-analysis of the deposited data

How the results depend on the processing

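In 8 settings, the main one, 6 other treatments of the signals and the use of bounds, HMOX1 and GCLM under H342, GPX2 under both dyes and HMOX1 between the dyes differed by 2-fold or more in every one. The log2 differences under H342 were -2.63 to -1.81 for HMOX1, -1.28 to -1.11 for GCLM and -2.66 to -1.34 for GPX2, and GPX2 ranged from -2.18 to -1.08 under H258. NFE2L2 reached 2-fold in none, with -0.94 to -0.83 under H258 and -0.98 to -0.84 under H342. Of the 10 genes, 1 was past 2-fold under H258. It became 0 when detection on both arrays was required, since GPX2 was then not tested, 2 at 1.5-fold and 2 with the mean over a gene's probes, where GCLM was added. Under H342 the count of 3 became 2 with detection on both arrays, 2 at 3-fold and 4 at 1.5-fold. At 1.5-fold, 18.8% of all genes tested were called under H258, 17.8% under H342 and 21.9% between the dyes. Of the pathway genes, 4 differed at 1.5-fold between the dyes in place of 1. The median between the dyes, -0.01, turned to 0.03 with cyclic loess and moved to -0.25 with no detection filter, which let GPX2 in. Over all genes, 434 called under H258, 514 under H342 and 765 between the dyes became 221, 292 and 496 with an offset of 50, 112, 172 and 293 without background correction, and 88, 163 and 262 in the deposited table. At 1.5-fold they became 1986, 1882 and 2250, and at 3-fold 31, 124 and 153. The share of higher genes under H258 went from 18.7% to 5.40% with an offset of 50. No paired analysis was possible because each condition has 1 array, and no array could be left out for the same reason. GPX2, ALDH3A1, CHAC1, SESN2, SLC48A1, OPLAH and MGST2 had signals near the lowest detected ones. So did HMOX1, AKR1C2 and AKR1B10 under H342, and the dimmer probe of GCLM under H258. At such signals the size of a difference depends on the background correction.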
